A study of Mus musculus with 7 samples.

Results

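Axon guidance ligands and receptors were followed in ribosome-bound RNA of cholinergic cells from the mouse ventral striatum. They were taken by gene symbol from the deposited expression table. They comprised the ephrins and Eph receptors, the semaphorins of classes 3 to 7, the plexins, the neuropilins, the Slits and Robo receptors, the netrins and netrin G genes, the Unc5 receptors and Dcc. The rule found 62 genes among the 21636 symbols of the table, 31 ligands and 31 receptors, each with 1 row. Genes of these families without a row were not analysed here.

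The RNA came from translating ribosome affinity purification, which captures tagged ribosomes and the RNA on them from cells in which the Chat promoter drives the tag (ChAT bacTRAP). For each library, tissue from 3 C57/Bl6N mice (6 ventral striata) was combined. The animals were 8 to 12 weeks old, of both sexes, and the labels name no treatment. The 4 KO libraries came from mice labelled ChAT TRAP, p11 fl/fl and ChAT Cre, in which Cre follows the Chat promoter. The 3 WT libraries came from littermates labelled ChAT TRAP and p11 fl/fl without Cre, so the floxed S100a10 alleles and the ribosome tag were common to both groups, and Cre came with KO alone. A replicate was a pool of mice, and p-values measured the spread between pools. In pooled RNA of this kind, fewer cells that express a gene and less RNA per cell cannot be told apart.

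Guidance molecules steer growing axons by attraction or repulsion. Slits act on Robo receptors, netrins on Dcc and Unc5 receptors, semaphorins on plexins with or without a neuropilin, and ephrins on Eph receptors of touching cells. In adult neurons many of them remain at synapses, where they are known for roles in spine shape, synapse number and plasticity.

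The values were FPKM (fragments per kilobase of transcript, scaled to the mapped fragments of a library), given by the authors to 1 decimal, so levels can be compared between genes and a value under 0.05 appears as 0.0. S100a10, the gene of p11, stood at 127.1, 138.8, 189.8 and 89.2 FPKM in KO1 to KO4 and at 329.5, 332.7 and 387.5 FPKM in WT1 to WT3 (log2 fold change -1.40, limma adjusted p = 0.0098), a direction that goes with the labels. The S100a10 call was lost without WT1 (-1.44, limma adjusted p = 0.063) and without WT2 (-1.44, limma adjusted p = 0.058). The cholinergic enzyme Chat averaged 205 ± 53.5 FPKM in KO (SD, n = 4) and 248 ± 51.9 FPKM in WT (SD, n = 3). Summed over the 13 cholinergic markers in the table, the level ran from 1686 to 1917 FPKM in KO and from 2019 to 2091 FPKM in WT, without overlap. The marker sum of 9 oligodendrocyte genes was 88.5 FPKM in KO1 and 36.4 to 49.9 FPKM in the other libraries of KO, against 34.1 to 39.9 FPKM in WT. That of 6 genes of other interneurons was 91.6 FPKM in KO1, 10.3 to 29.8 FPKM in KO2 to KO4 and 9.9 to 14.8 FPKM in WT, and 7 microglial genes summed to at most 2.6 FPKM in any library. Summed over 10 markers of medium spiny neurons, the main neurons of the striatum, the level ran from 802.7 FPKM in KO3 to 1110.5 FPKM in KO4, and from 711.3 to 907.9 FPKM in WT. Of the 9 tested ones 7 had positive fold changes (median 0.51) and none passed. For 7 astrocyte genes the sum was 75.3 FPKM in KO1, 49.8 to 63.7 FPKM in KO2 to KO4 and 52.1 to 56.8 FPKM in WT. For 7 genes of endothelial and mural cells it was 10.1 FPKM in KO1, 6.1 to 8.5 FPKM in KO2 to KO4 and 6.2 to 8.0 FPKM in WT. The oligodendrocyte, interneuron, astrocyte, and endothelial and mural sums were thus highest in KO1 and the medium spiny sum in KO4. The part of such RNA in the results below was not tested. Y-linked RNA was listed at 0.0 in KO2, WT2 and WT3, so male and female mice were not spread evenly over the groups.

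Of the 62 genes, 34 averaged at least 1 FPKM over the 7 libraries and were tested between KO and WT. Of these, 8 averaged at least 10 FPKM, 10 lay between 5 and 10 FPKM and 16 between 1 and 5 FPKM. The other 28 were below this limit. Among them, 4 were listed at 0.0 in every library, namely Epha1, Epha2, Robo4 and Sema3g. A further 9 were listed at 0.0 in some libraries, and 15 were above 0.0 in all. The plot of levels shows the tested members by family.

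**Figure D1:**
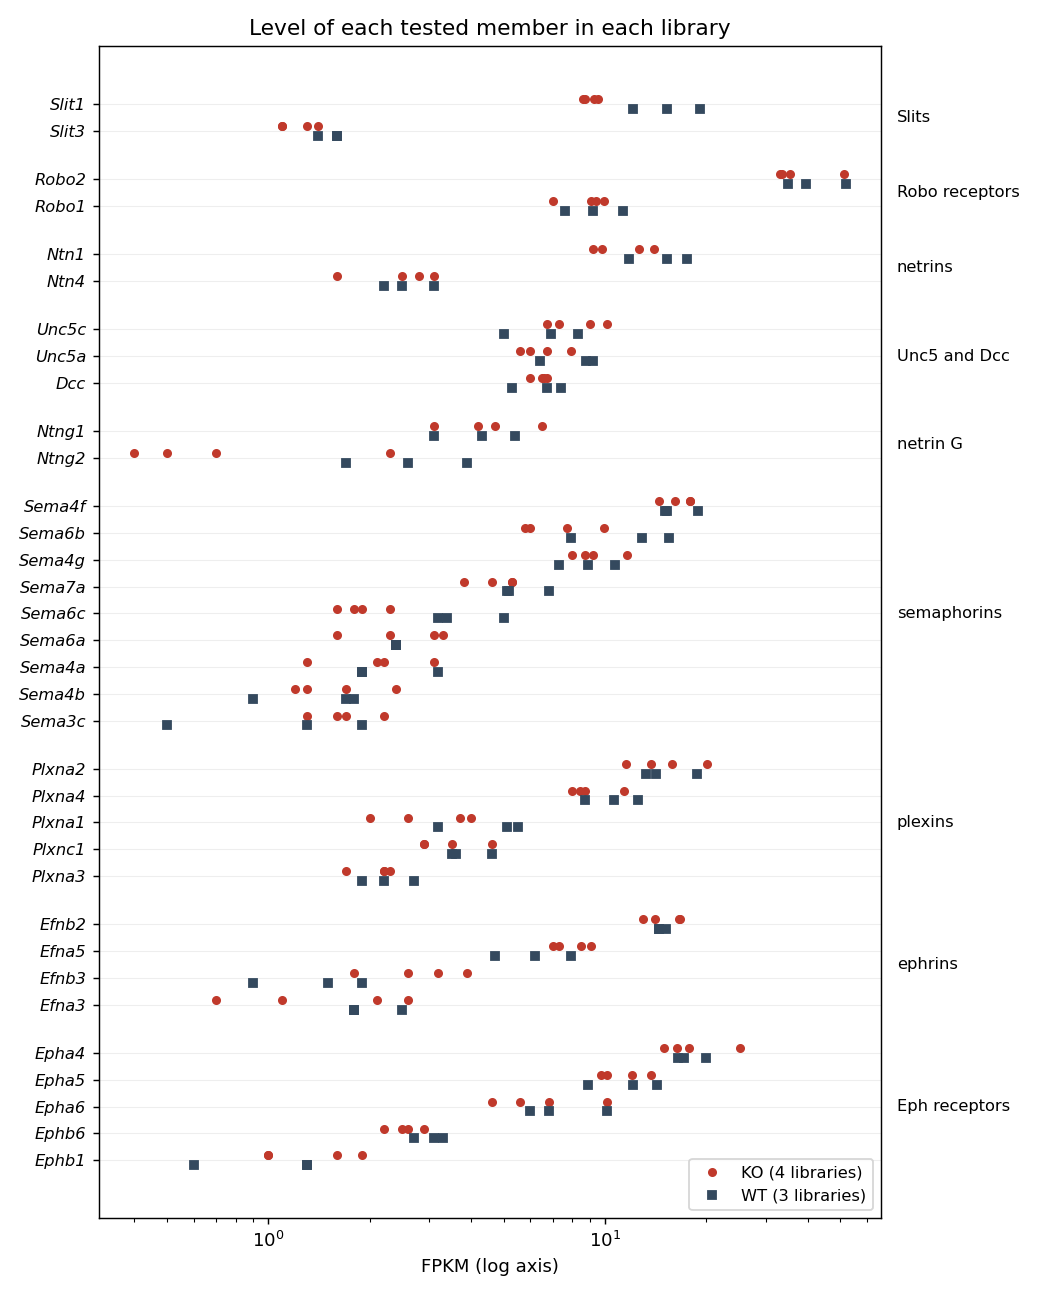
FPKM of each of the 34 tested members on a log axis, grouped by family. Circles are the 4 KO libraries and squares, below them, the 3 WT libraries. Robo2 lies to the right of every other member, and for Slit1 and Sema6c the circles lie left of the squares without overlap.

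None of the 34 tested members passed the threshold of 0.05 with limma, while 176 of 10089 rows did in the whole table (1.74%; 0.971% higher and 0.773% lower in KO). At an unadjusted limma p under 0.05 there were 5 members, 14.7% of the 34, against 18.8% of all tested rows. Of these, 4 were lower in KO (Slit1, Sema6c, Ntng2 and Sema6b; 8.69% of all rows were lower at this level) and 1 was higher (Efnb3; 10.1% of all rows). The 5 genes are all ligands or ligand-like, and 0 of the 15 tested receptors were among them; the difference between ligands and receptors was not tested. KO and WT values did not overlap in 2 tested members, Slit1 and Sema6c, 5.88% of the 34, against 17.4% of all rows (8.29% with KO below WT and 9.11% with KO above WT). These shares lie near or below those of the table as a whole, so the members did not stand out by their number of differences. The log2 fold changes, which are KO minus WT on log2(FPKM + 1) and understate changes of low genes, were positive in 13 members and negative in 21. Without WT3 the balance turned, with 19 positive and 15 negative, and without the filter on low values it was 30 and 28. Their median was -0.07, beside 0.03 for all rows. The median size of a fold change without its sign was 0.18 in the members and 0.22 in all rows.

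**Figure D2:**
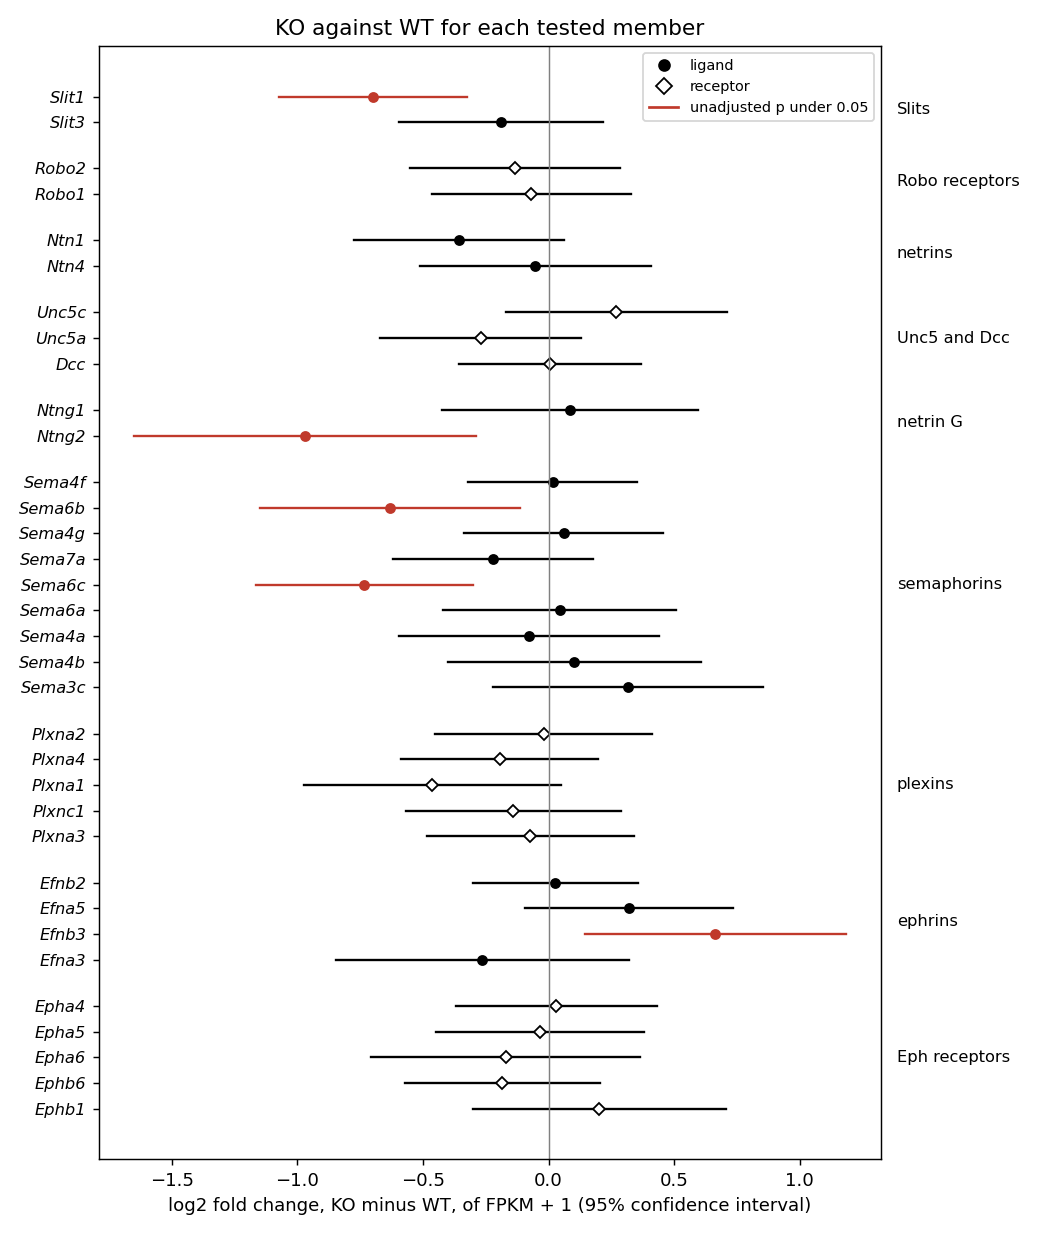
Log2 fold change of KO over WT, from FPKM + 1, for each of the 34 tested members, with its 95% confidence interval from limma. Filled circles are ligands and open diamonds receptors, and the 5 members drawn in red have an unadjusted p under 0.05, which no receptor has.

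Slit1, a secreted ligand of Robo receptors that is largely confined to the nervous system, lay lower in KO and was the 1 member in the authors' deposited table of 113 genes. Its level was 9.5, 8.6, 9.3 and 8.7 FPKM in KO1 to KO4, and 12.1, 15.3 and 19.1 FPKM in WT1 to WT3. Every KO library lay below every WT library, and the KO libraries lay within 0.9 FPKM of each other. The means were 9.03 ± 0.443 FPKM in KO (SD, n = 4) and 15.5 ± 3.50 FPKM in WT (SD, n = 3), so KO stood at 58.2% of WT. The limma estimate on the log2 scale was -0.70 with an SE of 0.17 and a 95% confidence interval from -1.07 to -0.32. Its unadjusted p was 0.0016 and its limma adjusted p = 0.067. In the authors' deposited table Slit1 had means of 9.01 FPKM in KO and 15.5 FPKM in WT, a log2 fold change of -0.80 and an adjusted p-value of 0.027. The gene lies on chromosome 19 (mm10, 41600257 to 41743665, minus strand), and no other annotated gene shares its exons. The other Slit in the table, Slit3, was near the limit of testing with 1.1 to 1.4 FPKM in KO and 1.4 to 1.6 FPKM in WT (log2 fold change -0.19, limma adjusted p = 0.62).

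The limma call for Slit1 depended on settings, and with them the count of members that passed. Slit1 passed with quantile normalization (-0.70, limma adjusted p = 0.049), with median centring (-0.70, adjusted p = 0.049), with array weights (-0.77, adjusted p = 0.0020) and without KO1 (-0.72, adjusted p = 0.046). It stayed lower in KO in all 20 alternatives, with log2 fold changes from -0.85 to -0.40 and limma adjusted p from 0.0020 to 0.26. The precision of 7 libraries was read from simulated data of the same 10089 rows, each drawn independently of the others. There, genes changed 1.5-fold in FPKM + 1 were found in 17.2% of cases and genes changed 2-fold in 61.4%. Trends shared between real rows were not simulated, so these percentages may not hold here.

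Robo2, a Slit receptor, was the most abundant member, at 51.2, 33.1, 33.6 and 35.5 FPKM in KO1 to KO4 and 34.9, 39.4 and 51.8 FPKM in WT1 to WT3. It was above 82.5% of all tested rows by its mean and held 13.6% to 17.1% of the summed level of all 62 members in each library. The highest KO value (KO1) and the highest WT value (WT3) were alike, and the groups overlapped (log2 fold change -0.13, 95% confidence interval -0.55 to 0.28, limma adjusted p = 0.75). Robo1, the close relative that also binds Slits, ranged from 7.0 to 11.3 FPKM over the 7 libraries. Its range did not meet that of Robo2 (-0.07, limma adjusted p = 0.88). Robo3, which in mammals does not act as a plain Slit receptor, reached 0.1 FPKM at most, and Robo4, known from blood vessels, was listed at 0.0 throughout. The purified RNA thus held 2 Slit receptors above 1 FPKM, and neither differed between KO and WT beyond the spread between pools. Which cells this RNA came from was not tested. For Robo2 the interval still allows a difference in either direction.

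Netrin 1 (Ntn1), the secreted ligand of Dcc and Unc5 receptors, stood at 12.6, 14.0, 9.2 and 9.8 FPKM in KO1 to KO4 and at 17.5, 15.3 and 11.8 FPKM in WT1 to WT3. The groups overlapped, and the means were 11.4 ± 2.28 FPKM in KO (SD, n = 4) and 14.9 ± 2.87 FPKM in WT (SD, n = 3). Its log2 fold change of -0.36 had a 95% confidence interval of -0.77 to 0.06 (limma adjusted p = 0.34), and with GC and length trends removed it was -0.09 (limma adjusted p = 0.85). Ntn4, a netrin found in basement membranes, ranged from 1.6 to 3.1 FPKM (-0.05, limma adjusted p = 0.92), and Ntn3 stayed at or under 1.0 FPKM.

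Dcc, the receptor through which netrin 1 attracts axons, varied little, with 6.6, 6.5, 6.0 and 6.7 FPKM in KO1 to KO4 and 5.3, 6.7 and 7.4 FPKM in WT1 to WT3. Its fold change was the one nearest 0 of all tested members (0.01, 95% confidence interval -0.36 to 0.37, limma adjusted p = 0.99). Among the Unc5 receptors, which mediate repulsion, Unc5c averaged 8.28 ± 1.56 FPKM in KO (SD, n = 4) and 6.73 ± 1.66 FPKM in WT (SD, n = 3), and Unc5a 6.55 ± 1.01 FPKM in KO and 8.13 ± 1.51 FPKM in WT. Their log2 fold changes of 0.27 and -0.27 had opposite signs, and neither passed (limma adjusted p = 0.49 and 0.45). Unc5a passed with array weights (-0.44, limma adjusted p = 0.041) and turned to 0.10 with GC and length trends removed (limma adjusted p = 0.81), where both had positive signs. Unc5c, Unc5a and Dcc had overlapping ranges of level, so the order of these 3 receptors was not set beyond their spread. Unc5b and Unc5d averaged under 1 FPKM, with at most 1.3 and 1.0 FPKM in any library.

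The netrin G proteins are membrane-anchored relatives of netrins that bind not Dcc but leucine-rich repeat partners on the facing synaptic membrane. Ntng2, whose partner is Lrrc4, stood at 2.3, 0.7, 0.4 and 0.5 FPKM in KO1 to KO4 and at 3.9, 2.6 and 1.7 FPKM in WT1 to WT3. KO1 lay among the WT libraries and KO2 to KO4 below all of them. At -0.97 (SE 0.31, 95% confidence interval -1.65 to -0.29) its log2 fold change was the lowest of the tested members, with an unadjusted p of 0.0093 and a limma adjusted p = 0.14. Without KO1 it was -1.25 and passed (limma adjusted p = 0.022). KO1 was also the library with the most RNA of oligodendrocytes, astrocytes, endothelial and mural cells and other interneurons. The part of that RNA in Ntng2 was not tested. With array weights Ntng2 passed as well (-1.06, limma adjusted p = 0.0040). Its KO mean was under the limit of 1 FPKM, so it was tested through its WT level, and 558 of its 3990 exonic bases are shared with another annotated gene on the same strand. Ntng1 ranged from 3.1 to 6.5 FPKM in KO and from 3.1 to 5.4 FPKM in WT (0.08, limma adjusted p = 0.88), and Lrrc4 averaged 3.55 ± 0.839 FPKM in KO and 3.83 ± 0.737 FPKM in WT (-0.09, adjusted p = 0.84).

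**Figure D3:**
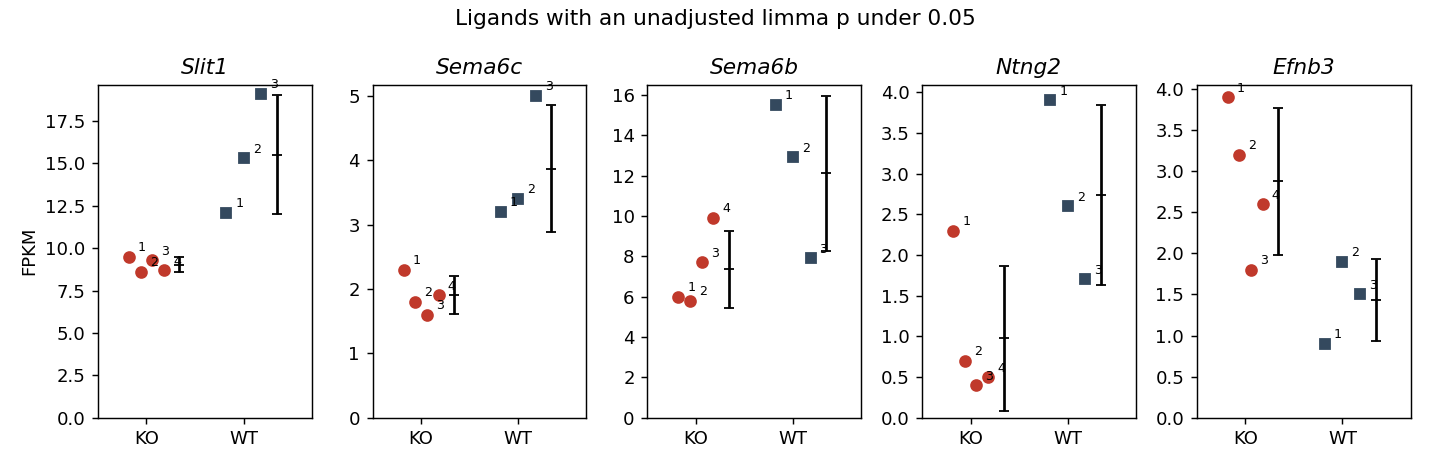
FPKM of the 5 members with an unadjusted limma p under 0.05 in each library. Circles are KO and squares WT, numbers are the replicate, and bars give the mean and SD of each group (n = 4 and n = 3). In Ntng2, KO1 lies at 2.3 FPKM and the other KO libraries at or under 0.7 FPKM.

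Among the 16 semaphorins 9 could be tested, of which 5 had positive and 4 negative fold changes. The 2 with an unadjusted p under 0.05, both lower in KO, belong to class 6, membrane-spanning semaphorins that bind A-type plexins without a neuropilin. Sema6c stood at 2.3, 1.8, 1.6 and 1.9 FPKM in KO1 to KO4 and at 3.2, 3.4 and 5.0 FPKM in WT1 to WT3. The groups did not overlap, and KO averaged 49.1% of WT (1.90 ± 0.294 FPKM, n = 4, and 3.87 ± 0.987 FPKM, n = 3, SD). Sema6c had a log2 fold change of -0.73 with an SE of 0.20, an unadjusted p of 0.0031 and a limma adjusted p = 0.088. It passed with array weights alone of the 19 alternatives that tested it (limma adjusted p from 0.0077 to 0.35). Sema6b stood at 6.0, 5.8, 7.7 and 9.9 FPKM in KO1 to KO4 and at 15.5, 12.9 and 7.9 FPKM in WT1 to WT3. KO4 lay above WT3, so these groups overlapped (-0.63, SE 0.24, unadjusted p of 0.021, limma adjusted p = 0.19). Sema6a, the third tested member of this class, was near 2.4 FPKM in all WT libraries and ranged from 1.6 to 3.3 FPKM in KO (0.04, limma adjusted p = 0.93).

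The promoter windows of the 2 class 6 genes with lower values in KO are shown because both transcripts are rich in G and C, the property described below. They are RefSeq windows of GRCm38.p6 (mm10) from 250 bases before to 50 bases after a gene start, 5′ to 3′, with GGGCGG in capitals, a motif known as the GC box that was searched on both strands with overlaps counted. That of Sema6c is chr3:95160170-95160469 on the plus strand and that of Sema6b is chr17:56140294-56140593 on the minus strand.
Sema6c: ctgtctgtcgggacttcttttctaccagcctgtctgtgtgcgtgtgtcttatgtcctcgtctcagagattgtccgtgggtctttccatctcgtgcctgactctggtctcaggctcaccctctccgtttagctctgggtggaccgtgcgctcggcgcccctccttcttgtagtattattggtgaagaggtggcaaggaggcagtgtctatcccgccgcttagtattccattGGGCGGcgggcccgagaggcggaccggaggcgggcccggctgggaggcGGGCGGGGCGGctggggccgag
Sema6b: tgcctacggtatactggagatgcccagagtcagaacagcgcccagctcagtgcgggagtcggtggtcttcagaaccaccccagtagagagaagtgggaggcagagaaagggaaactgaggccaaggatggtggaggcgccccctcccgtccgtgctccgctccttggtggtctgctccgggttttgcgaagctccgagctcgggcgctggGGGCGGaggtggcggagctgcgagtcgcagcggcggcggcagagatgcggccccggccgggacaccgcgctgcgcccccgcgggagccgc
The motif occurred 3 times for Sema6c and 1 time for Sema6b, and 35.9% of the 32544 windows of the same length in the table held it on either strand. The windows had a GC content of 62.7% for Sema6c and 69.0% for Sema6b, beside a median of 53.0% in all windows. A match of letters says nothing of a factor at this site.

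No other tested semaphorin had an unadjusted p under 0.05, and their KO and WT values overlapped. Sema4f, a membrane semaphorin of synapses, was the most abundant with 14.5 to 17.9 FPKM in KO and 15.1 to 18.9 FPKM in WT (log2 fold change 0.02, 95% confidence interval -0.32 to 0.35, limma adjusted p = 0.97). Sema4g followed with 8.0 to 11.6 FPKM in KO and 7.3 to 10.7 FPKM in WT (0.06, limma adjusted p = 0.89), and its range did not meet that of Sema4f. Sema7a, a membrane-anchored ligand of Plxnc1, had 3.8 to 5.3 FPKM in KO and 5.1 to 6.8 FPKM in WT (-0.22, limma adjusted p = 0.54). Sema3c was the only secreted class 3 semaphorin to reach the limit of testing, with 1.3 to 2.2 FPKM in KO and 0.5 to 1.9 FPKM in WT (0.32, limma adjusted p = 0.51). Sema4a and Sema4b had fold changes of -0.08 and 0.10. Of the 7 semaphorins below the limit, Sema5a reached the highest single value, 1.7 FPKM in KO1, with 0.6 to 1.2 FPKM elsewhere.

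Neuropilins, the coreceptors of most class 3 semaphorins, had low levels. Nrp1 did not exceed 0.3 FPKM and Nrp2 did not exceed 0.9 FPKM in any library, so neither was tested. The A-type plexins, the signalling partners of neuropilins and direct receptors of class 6 semaphorins, were by contrast well above the limit. Plxna2 stood at 20.1, 13.7, 11.5 and 15.8 FPKM in KO1 to KO4 and at 13.2, 14.2 and 18.7 FPKM in WT1 to WT3 (-0.02, 95% confidence interval -0.45 to 0.41, limma adjusted p = 0.97). Plxna4 ranged from 8.0 to 11.4 FPKM in KO and from 8.7 to 12.5 FPKM in WT (-0.19, limma adjusted p = 0.59). Plxna1 averaged 3.08 ± 0.936 FPKM in KO (SD, n = 4) and 4.60 ± 1.23 FPKM in WT (SD, n = 3), the largest difference of the 15 tested receptors (-0.46, SE 0.24, unadjusted p of 0.073, limma adjusted p = 0.31), and it passed with array weights (-0.72, limma adjusted p = 0.011) but was -0.19 with GC and length trends removed (limma adjusted p = 0.64). Plxnc1, the Sema7a receptor, and Plxna3 had fold changes of -0.14 and -0.07. All 5 tested plexins had negative fold changes, each with a confidence interval that includes 0, and the sign of Plxna2 turned in 5 of 20 alternatives. Plxnd1, Plxnb1 and Plxnb3 were below the limit, with at most 1.2, 0.2 and 0.5 FPKM.

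Among the ephrins, the ligands of Eph receptors that sit on the cell surface and can signal back into their own cell, Efnb3 was the 1 member with higher values in KO whose unadjusted p was under 0.05. It stood at 3.9, 3.2, 1.8 and 2.6 FPKM in KO1 to KO4 and at 0.9, 1.9 and 1.5 FPKM in WT1 to WT3. KO3 lay just below WT2, so the groups overlapped. The means were 2.88 ± 0.892 FPKM in KO (SD, n = 4) and 1.43 ± 0.503 FPKM in WT (SD, n = 3), and the difference on the log2 scale was 0.66 with an SE of 0.24 (95% confidence interval 0.14 to 1.18, limma adjusted p = 0.17). It passed in 0 of 19 alternatives (limma adjusted p from 0.11 to 0.44) and was higher in KO in all of them. Efnb2, the most abundant ephrin and like Efnb3 a membrane-spanning one, averaged 15.1 ± 1.85 FPKM in KO (SD, n = 4) and 14.7 ± 0.404 FPKM in WT (SD, n = 3), at a log2 fold change of 0.03 (95% confidence interval -0.30 to 0.35, limma adjusted p = 0.95). Efna5, a lipid-anchored ephrin, averaged 7.98 ± 0.991 FPKM in KO and 6.27 ± 1.60 FPKM in WT (0.32, limma adjusted p = 0.38), and Efna3 ranged from 0.7 to 2.6 FPKM in KO and from 1.8 to 2.5 FPKM in WT. Efna1, Efna2, Efna4 and Efnb1 reached 1.0 FPKM at most.

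Eph receptors are receptor tyrosine kinases, and among the 12 with a row the abundant ones were of the A class. Epha7 and Ephb2 had no row, so the classes could not be compared in full. Epha4, which binds ephrins of both classes, stood at 25.1, 17.7, 15.0 and 16.4 FPKM in KO1 to KO4 and at 16.5, 17.1 and 20.0 FPKM in WT1 to WT3, second to Robo2 by the mean over the 7 libraries. In KO3, KO4 and WT1 the level of Sema4f was higher than that of Epha4. So were Efnb2 in KO4 (16.6 FPKM) and Ntn1 in WT1 (17.5 FPKM). For Epha4, KO1 was the highest library, and the other 6 lay within 15.0 to 20.0 FPKM (log2 fold change 0.03, 95% confidence interval -0.37 to 0.43, limma adjusted p = 0.95). Epha5 ranged from 9.7 to 13.7 FPKM in KO and from 8.9 to 14.3 FPKM in WT (-0.03, limma adjusted p = 0.95), and Epha6 from 4.6 to 10.1 FPKM in KO and from 6.0 to 10.1 FPKM in WT (-0.17, adjusted p = 0.75). The range of Epha5 lay below that of Epha4 and overlapped that of Epha6. Ephb6, which lacks kinase activity, and Ephb1 were the tested B class members, at 2.2 to 3.3 FPKM and 0.6 to 1.9 FPKM over the 7 libraries (fold changes -0.18 and 0.20). Epha10 and Epha8 reached 1.0 and 0.9 FPKM at most, and Epha1, Epha2, Epha3, Ephb3 and Ephb4 did not exceed 0.1 FPKM. The KO and WT values of Ephb3 did not overlap, but they were 0.0 and 0.1 FPKM, a single rounding step apart.

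The summed level of the 31 ligands was 114.4, 109.0, 100.8 and 115.3 FPKM in KO1 to KO4 and 125.5, 122.0 and 123.8 FPKM in WT1 to WT3, and the groups did not overlap. The FPKM of all rows summed to 379416.9, 462624.2, 511327.6 and 484142.7 in KO1 to KO4. In WT1 to WT3 these totals were 440719.5, 434547.9 and 418930.6. Relative to its total, the ligand sum of KO1 lay above that of every WT library. The groups were thus apart only in sums not scaled to the totals. Without Slit1 alone, the ligand sums were 104.9, 100.4, 91.5 and 106.6 FPKM in KO1 to KO4. In WT1 to WT3 they were 113.4, 106.7 and 104.7 FPKM, so the groups already overlapped. Without Slit1 and Sema6b, the sums were 98.9, 94.6, 83.8 and 96.7 FPKM in KO1 to KO4. In WT1 to WT3 they were then 97.9, 93.8 and 96.8 FPKM, and the groups overlapped as well. Slit1 and Sema6b were chosen after their values were seen. The 31 receptors summed to 185.1, 134.0, 125.6 and 141.9 FPKM in KO1 to KO4 and 128.8, 151.1 and 185.3 FPKM in WT1 to WT3. KO1 and WT3 were thus the high libraries for receptors in their groups, and they also held the highest value of 9 and 14 of the 34 tested members, 26.5% and 41.2%, against 22.4% and 11% of all tested rows, with a tie counted for each library that shared it. KO1 and WT3 also had the lowest total FPKM of their groups, and the part of this in their high receptor sums was not tested. Receptor sums were 1.03 to 1.62 times the ligand sums over the libraries.

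**Figure D4:**
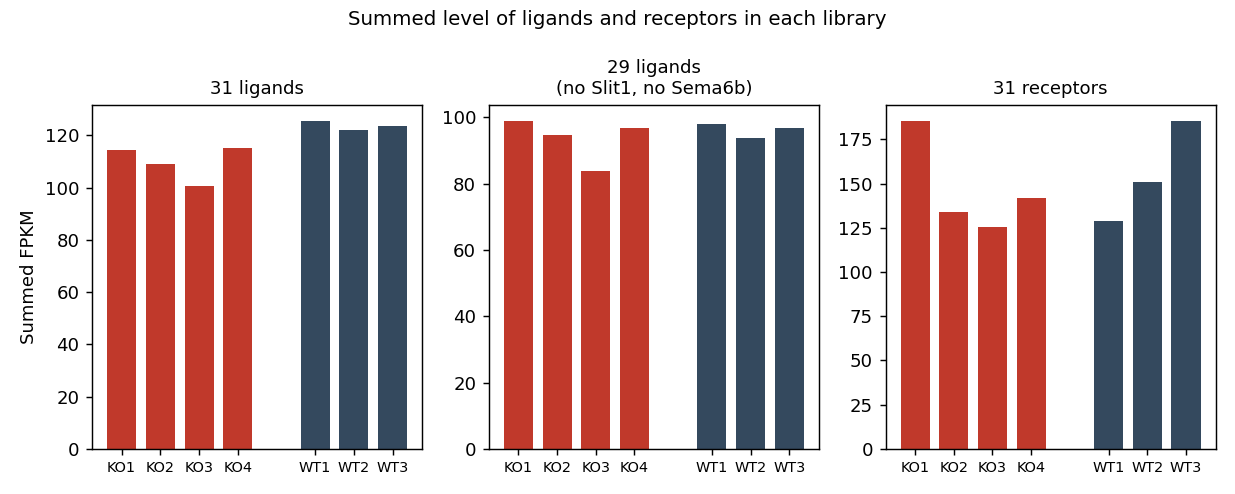
Summed FPKM of the 31 ligands, of the same ligands without Slit1 and Sema6b, and of the 31 receptors in each library, KO in red and WT in dark blue. The sums are not scaled to the total FPKM of each library. The ligand sums of KO lie at or under 115.3 FPKM and those of WT at or above 122.0 FPKM, while the receptor sums overlap.

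The 4 members with lower values in KO at an unadjusted p under 0.05 had transcripts rich in G and C. The longest annotated transcript of Slit1, Sema6c, Ntng2 and Sema6b had a GC content of 58.9%, 61.5%, 60.7% and 63.5%, above 93.3%, 98.0%, 96.9% and 99.3% of the tested rows. Over the table, fold changes went with GC content. With the rows split into 5 equal groups by GC content, the median log2 fold change was 0.20 in group 1, the lowest, and -0.18 in group 5, the highest, and Spearman's rho over 10023 rows was -0.39. Across the 34 members rho was -0.60, a description across genes that share the same 7 libraries. Of the 34 members 16 were in group 5, where 12 had negative fold changes and the median was -0.24, and 5 were in group 2, where 0 were negative. The other groups did not line up in the same way, since 2 of 3 members were negative in group 1 (median -0.03), 5 of 7 in group 3 (median -0.05) and 2 of 3 in group 4 (median -0.07). Efnb3, at 57.7%, was GC-rich and yet higher in KO. When trends with GC and transcript length were taken out of every library, an alternative added after the data were seen, 2 members had an unadjusted limma p under 0.05 and none passed. Slit1 then had a log2 fold change of -0.40 (limma adjusted p = 0.26), Sema6c of -0.37 (0.35), Ntng2 of -0.75 (0.29), Sema6b of -0.24 (0.56) and Efnb3 of 0.87 (0.11). The balance of signs was then 19 positive and 15 negative, the same numbers as without WT3.

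**Figure D5:**
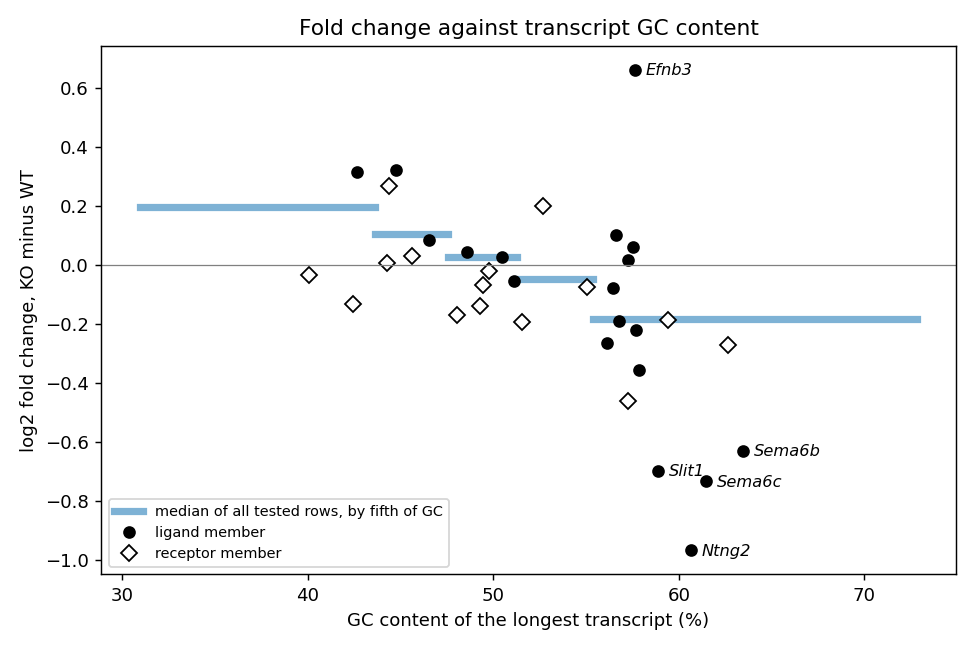
Log2 fold change of KO over WT against the GC content of the longest transcript for the 34 tested members, with the 5 of unadjusted p under 0.05 named. Blue bars give the median fold change of all tested rows in each of 5 equal groups by GC content, 0.20 in the lowest and -0.18 in the highest.

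Cytoplasmic effectors of these receptors and other guidance genes were read from the same fit. Of 48 listed effectors 43 were in the table and 38 were tested. None passed, and 5 had an unadjusted limma p under 0.05 (13.2%, beside 18.8% of all rows). KO and WT values did not overlap in 10.5% of the tested effectors, beside 17.4% of all rows. Rgs3 and Limk1 were lower in KO without overlap, and Chn1 and Pak1 were higher in KO without overlap. Rgs3, a G-protein regulator linked to ephrin B signalling, averaged 14.8 ± 1.78 FPKM in KO (SD, n = 4) and 20.3 ± 1.37 FPKM in WT (SD, n = 3), a log2 fold change of -0.44 (limma adjusted p = 0.16). Limk1, a kinase that inactivates the actin-severing protein cofilin, averaged 4.68 ± 0.985 FPKM in KO and 7.23 ± 1.01 FPKM in WT (-0.55, limma adjusted p = 0.16). Chn1, a Rac-inactivating protein that acts downstream of Epha4, was higher, at 135.0, 92.8, 102.1 and 101.2 FPKM in KO1 to KO4 and 71.6, 81.4 and 80.1 FPKM in WT1 to WT3, with no overlap (0.45, limma adjusted p = 0.17). The small GTPase Rac1 averaged 566 ± 136 FPKM in KO and 382 ± 62.7 FPKM in WT (0.54, limma adjusted p = 0.23).

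Of 33 other guidance cues, receptors and adhesion partners 32 were in the table and 23 were tested, with 0 passing and 4 at an unadjusted limma p under 0.05 (17.4%, beside 18.8% of all rows). KO and WT values did not overlap in 13% of the 23, beside 17.4% of all rows. These were Omg and Cntn4, higher in KO, and Cntn2, lower in KO. Omg, a myelin-associated inhibitor of axon growth that neurons also make, had the smallest p. It stood at 70.4, 62.2, 57.0 and 58.1 FPKM in KO1 to KO4 and at 35.5, 32.8 and 46.4 FPKM in WT1 to WT3, with no overlap. The log2 fold change was 0.69 with an SE of 0.16 and missed the threshold (limma adjusted p = 0.052). It passed at a minimum mean of 5 FPKM, with median centring, with robust variances, with array weights and without KO1. The repulsive guidance molecules Rgma and Rgmb averaged 2.78 ± 0.768 and 26.9 ± 5.64 FPKM in KO and 4.50 ± 0.721 and 35.8 ± 6.44 FPKM in WT (-0.56 and -0.41, limma adjusted p = 0.18 and 0.27). Cntn2, an adhesion molecule of axons, averaged 6.03 ± 0.640 FPKM in KO and 7.97 ± 0.416 FPKM in WT (-0.36, limma adjusted p = 0.26). The medians of the effectors and of the other guidance genes were -0.05 and -0.02.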

How the data were processed

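RNA on tagged ribosomes was sequenced in 4 KO and 3 WT libraries, grouped by sample title. The authors deposited FPKM per library, rounded to 1 decimal, and a table of 113 genes with group means, each gene's fold (KO against WT), that fold as log2, a p-value and an adjusted p-value. Cufflinks 2.1.1, TopHat2 2.0.8, TopHat and DESeq 1.10.1 are listed in the submitters' processing notes, with build mm10 and no roles. Annotation and strand handling are not given in the sources used here. FPKM carries no depth, so no counting intervals were given.

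The 10089 rows averaging 1 FPKM or more were fitted as log2(FPKM + 1) with limma 3.58.1 in R 4.3.3 (trend, two-sided), with Benjamini-Hochberg adjustment over all of them. In simulated data 97.6% of 4-fold changes were recovered and 5.9% of calls were false. The rows were simulated independently, without trends that real rows share, such as that with GC content. These percentages may thus not hold for the real libraries. The members and lists were chosen with earlier results of these data known. Named were members at an unadjusted p under 0.05, the 3 most abundant of each family, those in the authors' deposited table, and up to 4 genes of each further list. Coordinates, GC content and lengths came from GENCODE vM21 (98.5% of symbols matched), and promoter windows from RefSeq, which held 53 of the members. The alternatives covered pseudocounts of 0.1 and 5, filters on low values, scaling, variance models, a replicate block, a term for Y-linked RNA and each library left out. Numbers heading the columns were 210 to 222 for KO and 83 to 113 for WT, so processing order and group cannot be told apart if the numbers follow it. Python 3.11.15 with pandas 2.3.3 and matplotlib 3.10.9 served for tables and figures.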

Additional observations from a re-analysis of the deposited data

Results flagged for a closer look

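In 3 of the 34 tested members 1 KO library stood apart from the other KO libraries, by a gap that is large for 4 values by Dixon's ratio. Chance flags about 1 in 20 groups. Ntng2 was at 2.3 FPKM in KO1, with 0.7 FPKM as the next value and 0.4 FPKM as the lowest. Robo2 was at 51.2 FPKM in KO1, with 35.5 FPKM next and 33.1 FPKM lowest. Plxna3 was at 1.7 FPKM in KO4, with 2.2 FPKM next and 2.3 FPKM highest.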

How the results depend on the processing

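All 10089 rows gave 176 calls. The count was 83 without a filter on low values, 100 with limma without trend, 1689 with array weights, 18 with the replicate block, and 28 to 376 with a library left out (28 without WT2, 44 without WT1, 56 without KO2, 75 without WT3, 97 without KO3, 111 without KO4, 376 without KO1). Members that passed numbered 1 with quantile normalization, 1 with median centring, 6 with array weights (Slit1, Sema6c, Sema6b, Ntng2, Plxna1 and Unc5a) and 0 to 2 with a library left out. Effectors and other guidance genes that passed numbered 1 with median centring, with robust variances and with a filter at 5 FPKM, 11 with array weights and 0 to 3 with a library left out. The members' median ran from -0.15 to 0.02 with a library left out. S100a10 lost its call with the replicate block (-1.22, limma adjusted p = 0.083), without WT1 (0.063) and without WT2 (0.058), and ran from -1.58 to -1.22 with a library left out. Deviations of same-numbered libraries from their group means correlated at -0.22, 0.02 and -0.26, and those of different numbers at -0.12 to 0.31. Deviations from a group's own mean depend on each other, so these values cannot settle whether the pools were paired. KO4 has no WT partner. The block called no member, and Slit1 had -0.68 (limma adjusted p = 0.26). The cause of these shifts was not tested.

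Small fold changes turned sign. With array weights they were -0.0437 (Epha4), -0.0173 (Efnb2) and -0.0682 (Dcc). With the replicate block they were 0.0321 (Epha5), -0.0189 (Efnb2), -0.02 (Sema4f), -0.0369 (Sema4g) and -0.0101 (Dcc). With the term for Y-linked RNA they were 0.0246 (Epha5), -0.0113 (Efnb2), 0.0674 (Ntn4), 4e-04 (Plxna2), 0.0325 (Robo1) and -0.0532 (Sema4f). With GC and length trends removed they were 0.0053 (Ntn4), 0.0568 (Plxna2), 0.0472 (Slit3), 0.10 (Unc5a) and -0.041 (Dcc). With a library left out, the ranges that crossed 0 were -0.11 to 0.10 (Dcc), -0.0217 to 0.0911 (Efnb2), -0.12 to 0.12 (Epha4), -0.21 to 0.11 (Epha5), -0.36 to 0.0255 (Epha6), -0.14 to 0.08 (Ntn4), -0.084 to 0.24 (Ntng1), -0.15 to 0.12 (Plxna2), -0.20 to 0.06 (Robo1), -0.28 to 0.024 (Robo2), -0.0381 to 0.11 (Sema4f) and -0.0645 to 0.18 (Sema4g). The rounding to 0.1 FPKM limits the 28 members below the filter.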
